A study of Mus musculus with 49 samples.

Results

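DediHeps are dedifferentiated hepatocytes, cells that grow out of plated mouse hepatocytes and are passaged as a monolayer. Their transcripts were compared with those of hepatocytes taken straight from the liver. The members are the 5 libraries labelled as monolayer dediHeps and the 3 labelled as freshly isolated hepatocytes (FH), 8 of the 49 libraries in the table of counts. All 8 are labelled as wild-type C57BL/6J liver, and the study's methods describe livers of 10-week-old male mice, digested with collagenase and freed of non-parenchymal cells by repeated centrifugation. FH cells were never cultured, whereas dediHeps grew on type I collagen in a medium for hepatic progenitor cells with EGF at 20 ng/mL. The labels give each dediHep library a code of its own, some of which recur among libraries of other culture formats, but do not say whether a code stands for an animal, a culture or a date, and they name no passage number. For FH they give only numbers. The p-values below therefore measure the spread between libraries, which may in part be technical. Culture, growth factor, passage and time outside the animal are joined in every dediHep library and cannot be told apart.

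Hepatocytes are polarised, rarely dividing epithelial cells that make most plasma proteins, turn ammonia into urea, store and release glucose, burn fatty acids and form bile. In dishes they are known to lose this programme within days, a process called dedifferentiation, while taking up genes of the cytoskeleton, the matrix and growth control. The pathways are described by role, from receptors and ligands to cell structure, metabolism and the machinery that every cell shares, and last come the liver genes that remained highest in dediHeps.

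Transcripts were counted by CEL-seq2, which tags the 3′ end of each RNA with a unique molecular identifier (UMI). Library totals were 1211070 to 1523804 UMIs in FH and 1631842 to 2848505 in dediHeps. Levels are given as CPM, counts per 1000000 counts of a library scaled with TMM factors (0.642 to 0.714 in FH, 1.22 to 1.36 in dediHeps). Since each molecule gives one tag whatever its length, CPM of different genes can be set side by side within a library. TMM factors rescale a whole library, so that scaled CPM are not shares of its molecules. Values after ± are SDs for CPM (n = 3 FH and n = 5 dediHep libraries) and SEs for log2 fold changes, which are dediHep over FH throughout. Before TMM scaling, 3 counts in a library correspond to 1.05 to 2.48 CPM of its total. In the scaled CPM given below, 3 counts are 3.39, 3.89 and 2.897 CPM in FH libraries 1, 2 and 3. In dediHep library 3 they are 0.786 CPM. Where a group had no count at all the fold is a lower limit, computed with 3 counts over that group. Since 6-base UMIs allow 4096 tags per gene, the highest counts were compressed. FH libraries held 88 to 123 genes above 2000 counts and dediHep libraries 42 to 136, so that folds of genes near this ceiling in FH alone are understated, and where both groups are near it the levels of both are.

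Several libraries stood apart. DediHep library 1 had Xist at 375.9 CPM and no count of the Y-linked genes Ddx3y, Eif2s3y, Uty and Kdm5d, which goes against a male donor, and dediHep library 2 had neither Xist nor a Y-linked count. The sum of the 4 Y-linked genes was 226.4, 16.2 and 21.2 CPM in dediHep libraries 3, 4 and 5, and 451.0 to 749.4 CPM in FH. On the second principal component (10.72% of the variance, against 76.58% for the first, which separated the groups), FH library 1 and dediHep library 1 lay at 69.79 and 80.25 and the other 6 libraries between −47.88 and −5.05. Hepatocyte markers, 8 genes, summed to 21970 to 29080 CPM in FH and to 1004 to 4748 CPM in dediHeps, which carry the same cell type label. Markers of other liver cells moved with the comparison. The summed CPM of 12 Kupffer cell markers were 140.0 to 452 in FH and 0.816 to 9.17 in dediHeps, with 8 of the 12 at 0 in every dediHep library. Sinusoidal endothelial markers summed to 360.2 to 407 and 10.7 to 16.6 CPM, stellate cell and fibroblast markers to 157 to 253 and 30.1 to 126, and erythroid markers to 86.0 to 199 and 0 to 0.869. Cholangiocyte markers, 10 genes, went the other way and summed to 48.0 to 136 CPM in FH and 966 to 1603 CPM in dediHeps. Of the 7 tested 4 rose, among them Krt19, which had no count in FH, and 0 fell. The part of other cell types in the results below was not tested. T, B and NK cell markers summed to at most 6.79 CPM and neutrophil and mast cell markers to at most 17.3 CPM in any library. In bulk RNA, fewer cells of a type and less RNA per cell cannot be told apart.

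In the quasi-likelihood test of edgeR, 11276 genes were tested and a gene was called when its FDR was under 0.1 and its log2 fold change beyond 2 in either direction. By this rule 13.1% of all genes tested were called higher and 12.6% lower, and at the same FDR with any fold 22.4% were higher and 22.7% lower. These shares are the background for every gene list below. Genes with hardly any count in FH passed the filter on low counts only through dediHeps and could only come out higher. The reverse holds for genes with hardly any count in dediHeps. Counts of called members in lists with such genes are descriptions, also where this is not repeated below. The verbs rose and fell are used below for called genes. The groups did not overlap for 4518 of the 11276 genes tested, which is the background wherever a lack of overlap is given. A gene was termed kept when the 95% interval of its log2 fold change lay wholly between −1 and 1 and its mean was at least 10 CPM in both groups, which held for 6.25% of genes. On simulated counts, 8.03% of genes without a change met this rule, so that a gene not kept may still be unchanged. Scaled by library totals without TMM factors, the median log2 fold change of all genes moved from 0.08 to 0.97 and the calls from 1480 higher and 1421 lower to 2592 higher and 961 lower. In place of 2901 genes, 2865 were called without dediHep library 1 and 3168 without FH library 1 and dediHep library 1.

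**Figure D1:**
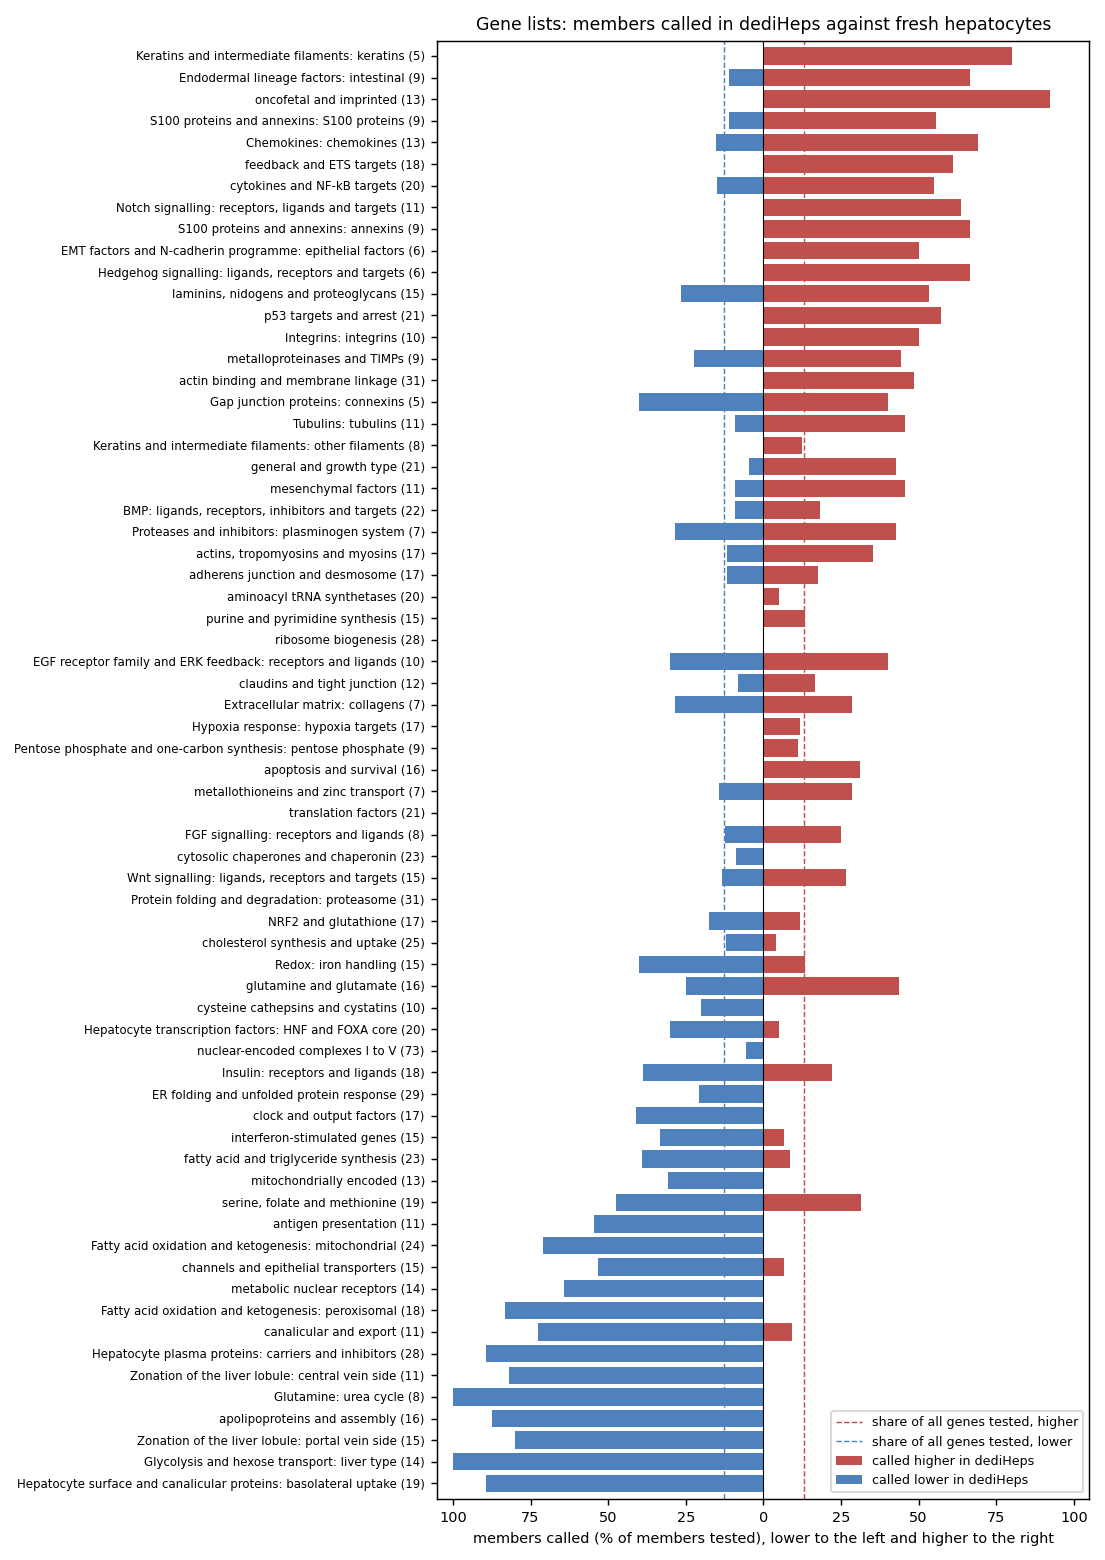
Share of the tested members of each gene list that were called higher (red, to the right) or lower (blue, to the left) in 5 dediHep against 3 FH libraries, ordered by the median log2 fold change of the list, with the number of members tested in brackets. Dashed lines mark the shares among all 11276 genes (13.1% higher, 12.6% lower). Oncofetal, keratin, annexin and chemokine lists lie far to the right, and liver glycolysis and urea cycle lists reach 100% on the left.

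The receptor for the growth factor in the medium was among the genes that were lower. Egfr, the EGF receptor of the hepatocyte surface, was at 644, 479.5 and 553 CPM in FH and at 93.2, 11.7, 10.2, 15.5 and 13.1 CPM in dediHeps. The groups did not overlap, and dediHep library 1 was closest to FH (log2 fold change −4.29 ± 0.72, FDR 0.000704). Erbb3, a partner receptor that binds neuregulins, fell from 77.6 ± 33.8 to 13.2 ± 8.81 CPM, and Errfi1, an intracellular inhibitor of EGFR, from 727 ± 117 to 122 ± 18.3 CPM. In contrast, Erbb2, the co-receptor without a ligand of its own, had no count in FH and 14.8, 6.52, 14.1, 17.9 and 20.8 CPM in dediHeps (at least 13.4-fold higher). The EGFR ligands Hbegf, Areg and Ereg were higher in dediHeps. Hbegf rose from 0, 1.30 and 0 CPM to 121, 142, 62.6, 75.7 and 166 CPM (286-fold higher, 95% counting interval 51.2 to 11290). Areg, encoding amphiregulin, had no count in FH and 50.4, 29.1, 43.0, 36.5 and 2.45 CPM in dediHeps, with the lowest value in library 5 (at least 29.5-fold higher). Ereg, encoding epiregulin, rose to 17.3 ± 12.9 CPM. Of the 10 receptors, ligands and inhibitors tested, 4 rose and 3 fell, and under library totals without TMM factors 1 was lower. Erbb2, Areg and Hbegf, with no count or a single count in FH, passed the filter only through dediHeps, so that the count is a description. Met, the receptor of hepatocyte growth factor, was kept at 503.7 ± 104.6 and 471 ± 171 CPM (95% interval of the log2 fold change −0.89 to 0.70).

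EGFR and MET signal through the ERK kinases, whose activity induces phosphatases, Sprouty proteins and ETS factors that feed back on the pathway. Of the 18 such genes tested, 11 rose and 0 fell, with a median log2 fold change of 3.34 against 0.08 over all genes. Dusp5, a nuclear ERK phosphatase, was at 6.79, 1.30 and 8.69 CPM in FH and 492, 530.1, 293, 569.6 and 501 CPM in dediHeps (log2 fold change 6.35 ± 0.57, FDR 8.88e-06). Ier3, an immediate early gene, showed the same separation, with 2.26, 9.07 and 0.966 CPM against 381, 382, 195, 469.5 and 262 CPM. Every dediHep library exceeded every FH library for both genes. The ETS factor Etv4 and the AP-1 member Fosl1 had no count in FH and reached 19.2 ± 12.6 and 15.1 ± 4.52 CPM. Both passed the filter only through dediHeps, so that the count of members is a description. Spry2, which dampens receptor tyrosine kinases, rose to 9.71 ± 4.29 CPM. Ccnd1, the cyclin of the early cell cycle, rose from 46.8 ± 23.4 to 499 ± 217 CPM. Dusp6, a cytoplasmic ERK phosphatase, did not pass the test, with 262, 55.7 and 91.7 CPM in FH and 611, 385, 162, 223 and 276 CPM in dediHeps and overlapping groups (log2 fold change 1.28 ± 0.57, FDR 0.103). Egr1 was also not called, at 204 ± 51.9 and 283 ± 132 CPM. Dusp6 passed the call without FH library 1 (log2 fold change 2.16, FDR 0.0166).

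**Figure D2:**
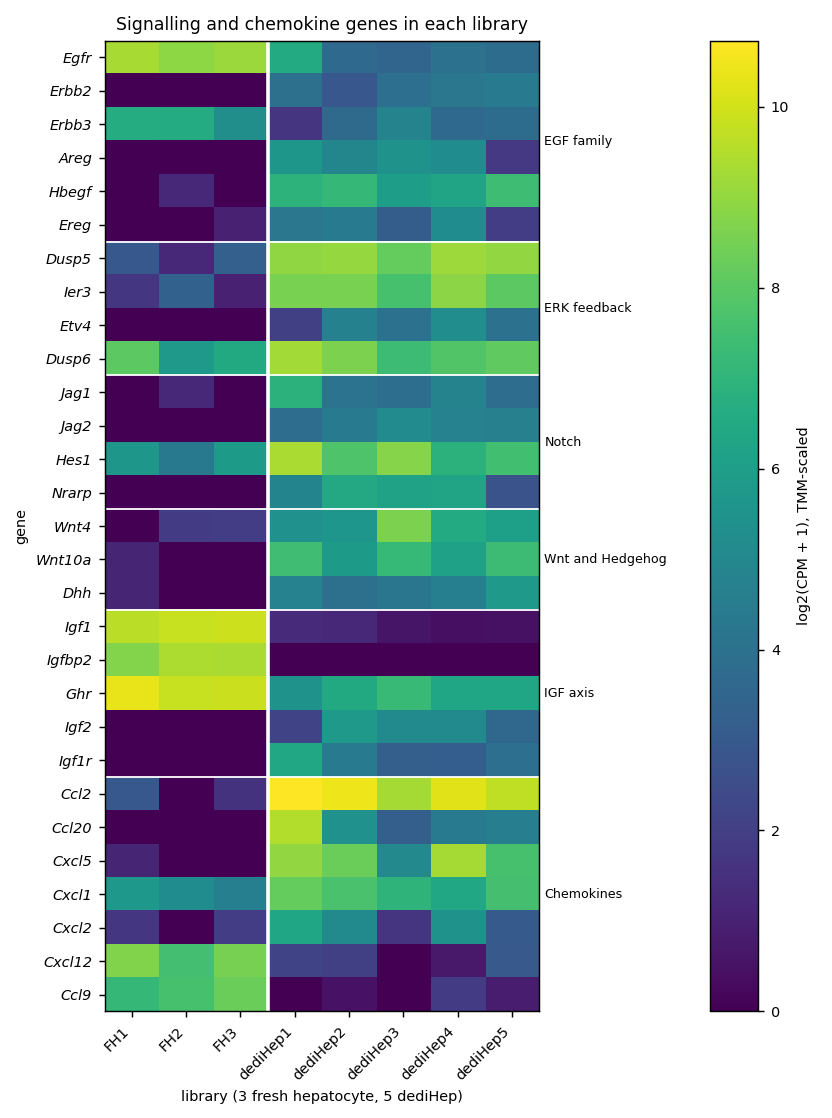
Heat map of log2(CPM + 1), TMM-scaled, for 29 genes of signalling pathways and chemokines (rows, grouped by role) in each of the 3 FH and 5 dediHep libraries (columns). Igfbp2, Igf1, Cxcl12 and Ccl9 are bright only in FH columns, Dusp5, Ier3 and Ccl2 are bright in all 5 dediHep columns, and Ccl20 varies most among dediHeps, with its highest level in library 1.

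Notch, in which a ligand on one cell switches on transcription in its neighbour and which directs bile duct formation in the liver, had 7 of 11 tested members higher and 0 lower. Jag1, Jag2, Nrarp and Hey1 had no count or a single count in FH. They passed the filter only through dediHeps, so that the count is a description. Among ligands, Jag1 was at 0, 1.30 and 0 CPM in FH and 117, 16.1, 13.9, 26.7 and 13.5 CPM in dediHeps, and Jag2 had no count in FH and 23.9 ± 8.17 CPM in dediHeps. The receptor Notch1 rose (log2 fold change 2.65 ± 0.68), whereas Notch2, the main Notch receptor of hepatocytes, was at 34.4 ± 2.23 and 30.9 ± 13.04 CPM and was not called. Among targets, Hes1 rose from 49.8, 19.4 and 57.0 CPM to 669, 218, 438, 117 and 176 CPM (log2 fold change 2.93 ± 0.65, FDR 0.00445). The highest FH value lay below the lowest dediHep value. Nrarp, a feedback inhibitor, was at least 51.2-fold higher, and Hey1 was at least 6.85-fold higher. Sox9, a target shared with bile duct cells, was at 53.2, 14.3 and 97.5 CPM in FH and 239.9, 249, 78.6, 284 and 175 CPM in dediHeps, below the fold threshold (log2 fold change 1.89 ± 0.60, FDR 0.0274). Hes6 was lower without reaching that threshold (log2 fold change −1.87 ± 0.38). Sox9 passed the call without FH library 3 or dediHep library 3 (log2 fold change 2.10 to 2.61, FDR 0.0136 to 0.0171). Hes6 passed the call without FH library 1 (log2 fold change −2.17, FDR 0.00134).

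Wnt signalling sustains the genes around the central vein. The ligand Wnt4 rose from 0, 2.59 and 2.897 CPM to 42.3, 48.2, 386, 92.6 and 66.5 CPM, with library 3 highest (log2 fold change 6.06 ± 1.13, FDR 0.00148). Wnt10a was seen as a single count in FH and at 171, 56.5, 144, 69.6 and 162 CPM in dediHeps (323-fold higher, 95% counting interval 57.9 to 12760). The receptors Fzd5 and Fzd2 rose to 40.8 ± 24.1 and 8.06 ± 4.17 CPM, whereas the factor Tcf7l1 fell to 4.23 ± 1.66 CPM. The target genes Axin2, Lgr5, Notum and Nkd1 were below the filter on low counts and were not tested. Of 15 tested members 4 rose and 2 fell, and the sign of their median changed with single libraries (−0.24 with all 8 and 0.80 without FH library 1, for example), so that no direction is given for the pathway.

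Hedgehog members were few, with 4 of 6 tested higher and 0 lower. The ligand Dhh, desert hedgehog, was a single count in FH and 26.0, 14.8, 17.8, 23.7 and 55.5 CPM in dediHeps (71.6-fold higher, 95% counting interval 12.8 to 2836). Dhh passed the filter only through dediHeps, so that the count of members is a description. The transducer Smo, the co-receptor Cdon and the transcription factor Gli3 rose to 16.4 ± 10.1, 11.5 ± 4.06 and 6.11 ± 4.16 CPM. Ptch1, the receptor and a target of the pathway, was lower by less than the threshold (log2 fold change −0.93 ± 0.40), and Gli1 was below the filter. Of the FGF family, Fgfbp1, a secreted FGF-binding protein, and Fgf13, an intracellular FGF homologue, were at least 83.2-fold and 18.4-fold higher. Fgfr1 fell from 13.7 ± 2.84 to 0.433 ± 0.536 CPM, and the hepatocyte receptor Fgfr4 was not called, at 31.8 ± 14.0 and 16.2 ± 7.19 CPM.

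Members of the BMP, TGF-beta and activin family were called higher in 4 and lower in 2 of 22 cases, with 7 higher without FH library 1 and 10 under library totals without TMM factors. Id1, a direct BMP target, was at 13.6, 14.3 and 48.3 CPM in FH and 651, 551, 489.6, 589 and 466 CPM in dediHeps (log2 fold change 4.42 ± 0.51, FDR 5.66e-05). The groups did not overlap. Its relatives Id2 and Id3 were not called (log2 fold changes 0.30 ± 0.41 and 1.40 ± 0.60). Id3 passed the call without FH library 1 (log2 fold change 2.06, FDR 0.0381). Tgfb2, a TGF-beta ligand, and Fstl3, an inhibitor of activins, had no count in FH and reached 16.5 ± 16.4 and 20.5 ± 14.8 CPM. Inhbc, the liver's activin C chain, fell from 184, 314 and 439 CPM to 0, 0, 0.262, 0.338 and 0 CPM (2156-fold lower, 95% counting interval 595 to 17830), and Bmp2 from 116 ± 18.3 to 24.1 ± 17.4 CPM. Bmp2 was not called without dediHep library 5 (log2 fold change −1.98, FDR 0.00508). The BMP receptor Bmpr2 was kept at 49.05 ± 13.4 and 49.9 ± 18.3 CPM.

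In the growth hormone and insulin axis, endocrine genes of the adult liver were lower and fetal growth factors higher. Of 18 tested members, 7 fell and 4 rose. Igf1, the hormone that the adult liver releases under growth hormone, was at 783, 919 and 976 CPM in FH and 1.53, 1.30, 0.524, 0.338 and 0.408 CPM in dediHeps (log2 fold change −10.08 ± 0.48, FDR 1.65e-07). Its carrier Igfals fell to 1.71 ± 0.362 CPM. Igfbp2 was at 424, 674 and 657 CPM in FH and had no count in any dediHep library (at least 2632-fold lower). Among receptors, Ghr fell from 1048 ± 231 to 88.8 ± 40.2 CPM, the glucagon receptor Gcgr from 208 ± 100.2 to 0.457 ± 0.554 CPM, the prolactin receptor Prlr from 94.8 ± 36.8 to 0.847 ± 1.53 CPM and the insulin receptor Insr from 212 ± 205 to 28.5 ± 13.4 CPM. Igf1r, which adult hepatocytes hardly express, had no count in FH and 82.5, 20.4, 8.38, 8.11 and 14.3 CPM in dediHeps (at least 19.9-fold higher). Igf2, the fetal counterpart of Igf1, also had no count in FH and 3.57, 53.9, 34.6, 34.1 and 11.01 CPM in dediHeps (at least 26.0-fold higher). Insr was not called without FH library 2 (log2 fold change −1.73, FDR 0.0233). The binding protein Igfbp3 rose to 12.7 ± 12.8 CPM. The adaptor Irs2 was not called, at 25.7 ± 14.8 and 28.0 ± 12.2 CPM.

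Structural genes were higher in most lists. Keratins are the intermediate filaments of epithelia, and adult hepatocytes use mainly Krt8 and Krt18. Of 16 listed keratins 5 passed the filter and 4 rose. Krt19 and Krt20 had no count in FH and passed only through dediHeps, so that the count is a description. Krt20, a keratin of intestinal and urothelial surfaces, had no count in FH and 409, 176, 245, 109.5 and 357 CPM in dediHeps (at least 222-fold higher). Krt8 rose (log2 fold change 2.18 ± 0.34), while its partner Krt18 was higher by less than the threshold, at 143, 285 and 518 CPM in FH and 606, 1029, 796, 933 and 876 CPM in dediHeps (log2 fold change 1.43 ± 0.42, FDR 0.0199). Its groups did not overlap. Basal keratins such as Krt5, Krt14, Krt15 and Krt17 were below the filter.

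Of 31 tested genes for actin binding and the link of actin to the membrane, 15 rose and 0 fell (median log2 fold change 2.03). Vil1, the bundler of microvilli in gut and kidney, had no count in FH and 29.5, 152, 258, 157 and 155 CPM in dediHeps (at least 148-fold higher). The crosslinker Flna was at 3.39, 1.30 and 3.86 CPM in FH and 274, 223, 170.0, 341 and 270.0 CPM in dediHeps (log2 fold change 6.42 ± 0.51, FDR 3.93e-06). No value of one group reached the other. Tagln2 rose from 27.2 ± 17.3 to 792 ± 256 CPM, the bundler Fscn1 from 4.63 ± 2.93 to 98.4 ± 94.3 CPM and Gsn, encoding gelsolin, from 7.06 ± 7.37 to 197 ± 178 CPM. ERM proteins, which tie actin to the membrane, diverged. Msn, encoding moesin, rose from 10.2, 3.89 and 10.6 CPM to 367, 209, 55.8, 128 and 171 CPM (log2 fold change 4.47 ± 0.69, FDR 0.000408), whereas Rdx, encoding the radixin of bile canaliculi, was lower by less than the threshold, at 877, 971 and 1445 CPM and 191, 510.1, 328, 427 and 563 CPM (log2 fold change −1.44 ± 0.37, FDR 0.0103). Both genes separated the groups without overlap. Tropomyosins also differed among themselves. Tpm4 and Tpm1 rose (log2 fold changes 4.12 ± 0.51 and 3.14 ± 0.40), whereas Tpm3 was kept (log2 fold change 0.25 ± 0.31). Actb, encoding beta-actin, was kept at 992 ± 519.7 and 947 ± 109.5 CPM, and Actg1, the second cytoplasmic actin, rose (log2 fold change 2.19 ± 0.42). Actg1 was not called without FH library 2 (log2 fold change 1.89, FDR 0.00801). The Arp2/3 subunit Arpc2 was kept at 681 ± 332 and 685 ± 215 CPM. The myosin light chain kinase Mylk fell (log2 fold change −2.59 ± 0.42).

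Of 11 tubulin genes tested, 5 rose and 1 fell. Tubb2b, a fetal beta-tubulin, was at 2.26, 0 and 0 CPM in FH and 182, 229, 41.7, 156 and 60.4 CPM in dediHeps (165-fold higher, 95% counting interval 45.6 to 1365). Tuba1a and Tubb6 rose to 367 ± 102 and 101 ± 45.5 CPM. Annexins bind membranes when calcium rises. Of 9 tested, 6 rose and 0 fell. Anxa2 was at 5.66, 10.4 and 6.76 CPM in FH and 426, 704, 711, 706 and 747 CPM in dediHeps, and Anxa3 at 1.13, 6.48 and 7.73 CPM and 778, 853, 509, 665 and 915 CPM (log2 fold changes 6.44 ± 0.45 and 7.16 ± 0.58, FDR 1.75e-06 and 4.94e-06). Neither gene overlapped between groups. Anxa1 and Anxa8 were at least 30.1-fold and 57.1-fold higher. Both had no count in FH and passed the filter only through dediHeps, so that the count of annexins is a description. Anxa6, Anxa7 and Anxa11 were not called. Among small calcium-binding S100 proteins, 5 of 9 tested rose and 1 fell, with S100a4 rising to 10.9 ± 5.70 CPM.

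Cell contacts differed from gene to gene. Connexins form gap junctions, and hepatocytes couple through Gjb1 and Gjb2, the connexins 32 and 26. Gjb1 was at 365, 985 and 909.7 CPM in FH and 6.11, 19.6, 58.2, 54.4 and 65.2 CPM in dediHeps (log2 fold change −4.20 ± 0.65, FDR 0.0004), and Gjb2 at 749.9, 295 and 367 CPM and 1.53, 3.04, 8.65, 15.2 and 0.816 CPM (log2 fold change −6.27 ± 0.77, FDR 8.20e-05). The groups did not overlap for either. Gja1, the widespread connexin 43, was not called (log2 fold change 2.01 ± 1.01). Gja1 passed the call without dediHep library 4 (log2 fold change 2.31, FDR 0.0358).

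Of 17 adherens junction and desmosome genes tested, 3 rose and 2 fell, and 6 rose under library totals without TMM factors. Cdh17, the liver-intestine cadherin, had no count in FH and 18.8, 70.0, 219, 63.2 and 50.6 CPM in dediHeps (at least 89.4-fold higher). The desmosomal plaque genes Ppl and Jup, encoding periplakin and plakoglobin, rose (log2 fold changes 3.91 ± 0.52 and 2.56 ± 0.82), and Dsc2, a desmosomal cadherin, fell from 114 ± 53.9 to 2.13 ± 3.12 CPM. Jup was not called without FH library 2, FH library 3 or dediHep library 1 (log2 fold change 1.86 to 2.33, FDR 0.0331 to 0.11). Ctnnb1, encoding beta-catenin, was kept at 939, 976 and 1323 CPM and 1130, 1521, 928, 1236 and 1247 CPM (95% interval −0.47 to 0.81). Pkp2 and Nectin2 were kept as well. Cdh2, the N-cadherin that hepatocytes carry beside E-cadherin, was at 38.5, 42.8 and 35.7 CPM in FH and 186, 71.3, 16.5, 31.4 and 58.7 CPM in dediHeps and was not called (log2 fold change 0.90 ± 0.67, FDR 0.324). Its groups overlapped. Of 12 tight junction genes 2 rose and 1 fell, and 5 rose under library totals without TMM factors. Cldn4 rose (40.5-fold higher, 95% counting interval 7.19 to 1607), while Cldn1 was at 32.8, 16.8 and 15.5 CPM in FH and had no count in dediHeps (at least 96.9-fold lower). Cldn4 was not called without FH library 1, FH library 2 or FH library 3 (log2 fold change 4.41 to 7.79, FDR 0.131 to 0.171). Lsr, a protein of tricellular contacts, was kept at 1061 ± 234 and 836 ± 164 CPM. Of 11 genes of the mesenchymal programme tested 5 rose and 1 fell, with Thbs1, encoding the matrix protein thrombospondin, among those that rose (102-fold higher, 95% counting interval 18.2 to 4042). Of the factors known to drive epithelial to mesenchymal transition, Zeb1, Zeb2 and Snai2 were not called (log2 fold changes −0.19 ± 0.44, −0.79 ± 0.68 and 1.30 ± 0.75), and Snai1 and Twist1 were below the filter. Fibronectin, Fn1, a product of hepatocytes as well as of fibroblasts, was not called (log2 fold change −0.21 ± 0.52). The hyaluronan receptor Cd44 rose from 39.6, 15.6 and 4.83 CPM to 492, 342, 298, 338 and 135 CPM (log2 fold change 4.01 ± 0.67, FDR 0.000736). The epithelial factors Klf5, Klf4 and Elf3 rose to 42.0 ± 8.19, 35.5 ± 32.9 and 13.5 ± 13.2 CPM.

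Of 15 laminins, nidogens and proteoglycans tested 8 rose and 4 fell, and of 7 collagens 2 rose and 2 fell. Laminins are trimers of alpha, beta and gamma chains that epithelia lay down beneath them. Lamb2 was at 2.26, 1.30 and 0.966 CPM in FH and 104.9, 129, 113, 237 and 288 CPM in dediHeps (log2 fold change 6.81 ± 0.66). Lama5 rose to 48.3 ± 21.6 CPM. The basement membrane collagens Col4a1 and Col4a2 rose (log2 fold changes 2.96 ± 0.47 and 2.60 ± 0.63), as did Nid1 and the proteoglycan Agrn (log2 fold changes 3.25 ± 0.77 and 3.56 ± 0.44). Some matrix genes known from fibroblasts fell. Col3a1 was at 81.4, 10.4 and 10.6 CPM in FH and had no count in dediHeps, and Dcn fell from 66.1 ± 19.6 to 0.204 ± 0.456 CPM. Col3a1 and Dcn also belong to the stellate cell and fibroblast markers, whose sum differed as given above, and the part of these cells in the result was not tested. The heparan sulphate proteoglycans Sdc2 and Gpc4 fell (log2 fold changes −2.88 ± 0.39 and −3.67 ± 0.96).

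Integrins are receptors for the matrix. Of 10 tested, 5 rose and 0 fell, and 3 rose without dediHep library 3. Itga3, a laminin receptor chain, was at 6.79, 2.59 and 14.5 CPM in FH and 434, 359, 129, 279 and 308 CPM in dediHeps (log2 fold change 5.19 ± 0.63, FDR 7.33e-05). The groups did not overlap. Itga6 and Itgb4, which together form the receptor of hemidesmosomes, rose to 59.6 ± 30.8 and 23.0 ± 21.2 CPM, and Itgb6 had no count in FH and 14.1 ± 10.2 CPM in dediHeps. The common chain Itgb1 was not called (log2 fold change 0.33 ± 0.38). In the plasminogen system, the liver product Plg fell from 1220, 2052 and 1886 CPM to 0, 3.04, 0, 1.69 and 2.04 CPM (log2 fold change −10.29 ± 0.81, FDR 3.93e-06), whereas the urokinase receptor Plaur rose to 7.97 ± 3.41 CPM. Among inhibitors of metalloproteinases, Timp2 and Timp1 rose to 332 ± 110.0 and 5.45 ± 1.80 CPM, while the membrane-bound protease Mmp15 fell (log2 fold change −3.36 ± 0.45).

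Chemokines are secreted proteins that attract leukocytes, and several are induced by NF-kappa B. Of 13 tested, 9 rose and 2 fell. Ccl20, Cxcl5, Ccl7, Cxcl17 and Cx3cl1 had no count or a single count in FH. They passed the filter only through dediHeps, so that the count is a description. Ccl2, which attracts monocytes, was at 6.79, 0 and 1.93 CPM in FH and 1700, 1405, 621, 1212 and 833 CPM in dediHeps (log2 fold change 8.58 ± 0.81, FDR 1.27e-05). Every dediHep library exceeded every FH library. Markers of macrophages were lower, as given above, and the part of these cells in the result was not tested. Ccl20 had no count in FH and 719, 42.6, 8.38, 21.0 and 23.2 CPM in dediHeps, with library 1 well above the others (at least 110.4-fold higher). Cxcl5 was at 1.13, 0 and 0 CPM and 508, 319, 31.7, 628 and 197 CPM (836-fold higher, 95% counting interval 150.0 to 33040). The neutrophil chemokine Cxcl1 rose from 52.0, 36.3 and 24.1 CPM to 296, 198, 124, 85.2 and 187 CPM (log2 fold change 2.25 ± 0.48, FDR 0.00349) without overlap, and Cxcl2 from 2.26, 0 and 2.897 CPM to 77.4, 34.3, 2.10, 43.3 and 7.34 CPM (log2 fold change 4.12 ± 1.26, FDR 0.0233) with overlap, since library 3 lay within the FH range. Cxcl1 was not called without dediHep library 1 (log2 fold change 1.99, FDR 0.00328). Ccl7, Cxcl17 and Cx3cl1 had no count in FH and reached 23.7 ± 17.1, 24.002 ± 20.4 and 21.4 ± 14.0 CPM. Cxcl12, a constitutive chemokine of liver and stroma, fell from 415, 184 and 371 CPM to 3.57, 3.04, 0, 0.676 and 6.93 CPM (log2 fold change −6.88 ± 0.82, FDR 6.90e-05), and Ccl9 from 217 ± 91.7 to 0.791 ± 1.12 CPM.

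The promoters of 3 of the chemokines that rose are shown because they carry matches to the kappa B motif GGGNNTTTCC, with which NF-kappa B is known to bind DNA. Each is the 250 bases before the start of the RefSeq transcript in GRCm38.p6, 5′ to 3′ on the strand of the gene, with motif matches in capitals. Cxcl1 lies at chr5:90890995-90891244 (plus strand, 2 matches), Cxcl2 at chr5:90903649-90903898 (plus strand, 2 matches) and Ccl20 at chr1:83116516-83116765 (plus strand, 1 match).
Cxcl1: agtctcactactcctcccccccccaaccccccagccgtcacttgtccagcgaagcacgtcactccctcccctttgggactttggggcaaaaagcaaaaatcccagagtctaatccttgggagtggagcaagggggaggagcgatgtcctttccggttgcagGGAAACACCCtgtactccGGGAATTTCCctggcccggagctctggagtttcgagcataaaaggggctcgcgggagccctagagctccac
Cxcl2: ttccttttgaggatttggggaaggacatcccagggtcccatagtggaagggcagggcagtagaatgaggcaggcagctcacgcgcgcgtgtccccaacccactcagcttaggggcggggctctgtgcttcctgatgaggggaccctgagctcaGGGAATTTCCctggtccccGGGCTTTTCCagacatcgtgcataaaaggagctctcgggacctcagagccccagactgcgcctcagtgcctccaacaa
Ccl20: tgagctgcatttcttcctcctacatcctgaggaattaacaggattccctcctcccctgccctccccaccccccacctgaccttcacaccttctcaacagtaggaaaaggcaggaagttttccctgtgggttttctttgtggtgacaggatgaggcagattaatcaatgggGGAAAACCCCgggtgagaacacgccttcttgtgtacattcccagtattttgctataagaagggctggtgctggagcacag
The matches end 61, 68 and 70 bases before the start for Cxcl1, Cxcl2 and Ccl20, counting from the match nearest to it. Searched on both strands, the motif stood in 4 of the 8 tested chemokine genes that had a promoter in the table and in 1.65% of 27025 genes with one. The fourth was Ccl9, which fell. Among genes called higher and lower over the whole table, 2.73% and 1.7% held it. A match is a description of the letters and no sign of binding in these cells.

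Other NF-kappa B and cytokine genes rose in 11 of 20 cases and fell in 3. Nfkb2, a subunit of NF-kappa B, was at 38.5, 57.0 and 37.7 CPM in FH and 354, 358, 248, 447 and 427 CPM in dediHeps (log2 fold change 3.05 ± 0.36, FDR 6.53e-05). All 5 dediHep libraries lay above FH. Lcn2, an iron-sequestering acute-phase protein, rose from 18.1, 5.18 and 7.73 CPM to 94.2, 108, 26.5, 403 and 154 CPM (log2 fold change 3.91 ± 0.88, FDR 0.00467), and Tnfrsf12a, the receptor of TWEAK, from 5.22 ± 0.414 to 112 ± 55.8 CPM. Lif, a cytokine of the interleukin 6 family, was at least 28.4-fold higher. The inhibitor Nfkbia was higher by less than the threshold (log2 fold change 1.01 ± 0.31, FDR 0.0227). The liver's own acute-phase genes went the other way. Saa1 fell from 2030, 321 and 195 CPM to 0, 0.435, 0, 3.38 and 0.816 CPM (log2 fold change −9.70 ± 1.11), Saa2 had no count in dediHeps (at least 1322-fold lower), and Saa3, the form made outside hepatocytes too, was not called (log2 fold change 1.66 ± 1.44).

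Interferon-stimulated genes were called lower in 5 and higher in 1 of 15 cases, with 3 lower under library totals without TMM factors. Ifitm3, which restricts virus entry, was at 366, 670.0 and 864 CPM in FH and 2.04, 0.435, 1.83, 12.8 and 0.408 CPM in dediHeps (log2 fold change −7.43 ± 0.89, FDR 6.99e-05). Rsad2 fell from 20.8 ± 5.83 to 0.255 ± 0.439 CPM. Of 11 antigen presentation genes, 6 fell and 0 rose. B2m, the common chain of MHC class I, fell from 2135, 1300 and 1366 CPM to 561, 194, 181, 184 and 193 CPM (log2 fold change −2.61 ± 0.44, FDR 0.000717), and its regulator Nlrc5 from 34.2 ± 27.6 to 0.493 ± 0.879 CPM. The class I heavy chains H2-K1 and H2-D1 were lower by less than the threshold (log2 fold changes −1.81 ± 0.32 and −1.50 ± 0.32, FDR 0.00101 and 0.00381). H2-K1 passed the call without FH library 3 (log2 fold change −2.03, FDR 0.00109). The class II genes H2-Aa and H2-Ab1, which mark antigen-presenting leukocytes, had no count in dediHeps. Their fall went with that of the Kupffer cell markers, and the part of those cells was not tested.

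In carbohydrate metabolism all 14 tested genes of the liver type fell, while of 21 general or growth-type genes 9 rose and 1 fell. Many reactions have one enzyme for the liver and another for most other cells. The general hexokinase Hk1 was at 2.26, 1.30 and 1.93 CPM in FH and 73.4, 172, 121, 231 and 185 CPM in dediHeps (log2 fold change 6.36 ± 0.60, FDR 1.32e-05). No FH library reached the lowest dediHep library. Pyruvate kinase has both forms. Pklr, of liver and red cells, fell from 44.1, 104 and 56.0 CPM to 13.8, 10.9, 12.8, 19.6 and 22.4 CPM (log2 fold change −2.09 ± 0.40, FDR 0.00169), and Pkm, of most proliferating cells, rose from 17.0, 16.8 and 18.3 CPM to 870.0, 1249, 968, 1134 and 1014 CPM (log2 fold change 5.91 ± 0.37, FDR 8.73e-07). The groups were separate for both genes. Pklr was not called without FH library 2 or dediHep library 2 (log2 fold change −1.65 to −1.93, FDR 0.00649 to 0.0157).

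**Figure D3:**
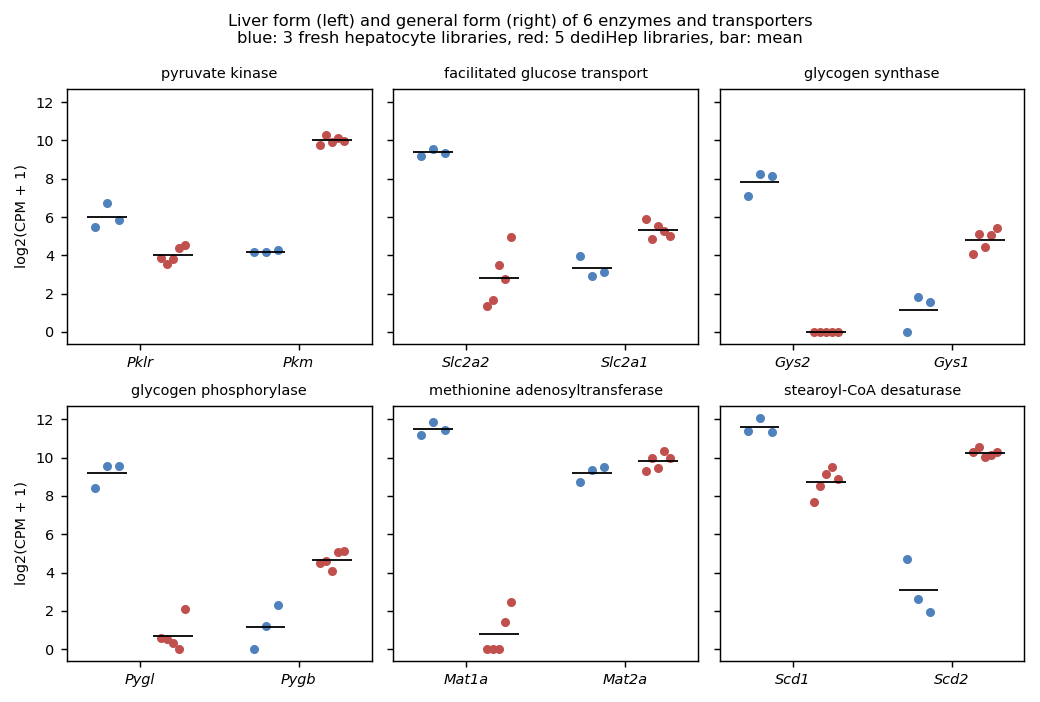
Levels in each library, as log2(CPM + 1), of 6 pairs of genes for one reaction, with the liver form on the left and the general form on the right of each panel (blue points for 3 FH libraries, red points for 5 dediHep libraries, black bars for means of the log values). The liver form was called lower in 6 of 6 pairs and the general form called higher in 5, the exception being Mat2a.

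The other pairs, chosen with their values known, included glucose transporters (Slc2a2 log2 fold change −6.05 ± 0.78, Slc2a1 log2 fold change 2.06 ± 0.45) and stearoyl-CoA desaturases (Scd1 log2 fold change −2.79 ± 0.40, Scd2 log2 fold change 6.81 ± 0.70). Glycogen synthase changed from Gys2, at 135, 306 and 286 CPM in FH and without a count in dediHeps, to Gys1, at 0, 2.59 and 1.93 CPM in FH and 15.8, 33.9, 20.7, 32.1 and 41.6 CPM in dediHeps. Glycogen phosphorylase changed from Pygl (615 ± 233 to 0.894 ± 1.34 CPM) to Pygb (1.72 ± 1.97 to 25.5 ± 7.46 CPM). The general aldolase Aldoa rose (log2 fold change 2.18 ± 0.52). Aldoa was not called without FH library 1 or dediHep library 4 (log2 fold change 1.78 to 1.999, FDR 0.0126 to 0.0167). Slc2a1 was not called without FH library 2, FH library 3 or dediHep library 1 (log2 fold change 1.86 to 1.93, FDR 0.00499 to 0.0245). Of the enzymes shared by glycolysis and its reverse, Pgam1 (log2 fold change −0.18 ± 0.35) and Tpi1 (log2 fold change −0.02 ± 0.37) were kept, whereas Gapdh, Eno1 and Pgk1 were not called. The genes specific to glucose release, Pck1, Fbp1 and G6pc, fell from 1675 ± 702, 1136 ± 276 and 370.0 ± 175 CPM to 0.0676 ± 0.151, 0.379 ± 0.709 and 0.207 ± 0.199 CPM. G6pdx, the entry enzyme of the pentose phosphate pathway, rose from 2.26, 14.3 and 14.5 CPM to 61.6, 89.1, 124, 311 and 148 CPM (log2 fold change 3.82 ± 0.72, FDR 0.00153), and was the only one of 9 pathway members called, where 2 were called under library totals without TMM factors.

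One-carbon metabolism changed direction by function. Synthesis of serine and the mitochondrial folate enzymes were higher, and the breakdown of methionine and betaine was lower, with 6 of 19 members higher and 9 lower (5 lower under library totals without TMM factors). Phgdh, the first enzyme of serine synthesis, had no count in FH and 19.4, 31.3, 20.4, 36.5 and 20.4 CPM in dediHeps (at least 23.0-fold higher). Psat1, the second, was at 3.39, 3.89 and 5.79 CPM and 697, 1589, 914, 1286 and 1443 CPM (log2 fold change 8.05 ± 0.54, FDR 1.32e-06). The groups were far apart. Psph, the last enzyme of the route, rose (log2 fold change 2.56 ± 0.65), as did Mthfd2, the mitochondrial folate dehydrogenase of growing cells (52.7-fold higher, 95% counting interval 17.9 to 256). Bhmt, which remakes methionine from betaine, was at 743, 1790 and 1172 CPM in FH and had no count in dediHeps (at least 5433-fold lower), and Gnmt fell from 3896, 4957 and 3877 CPM to 5.09, 10.4, 9.43, 41.9 and 149.7 CPM (log2 fold change −6.61 ± 1.01, FDR 0.000373). Mat1a, the liver enzyme of S-adenosylmethionine synthesis, fell from 2941 ± 725 to 1.24 ± 1.96 CPM while Mat2a was at 603 ± 167 and 927 ± 276 CPM.

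Of 16 genes of glutamine and glutamate handling, including the uptake and synthesis of non-essential amino acids, 7 rose and 4 fell, and 1 fell under library totals without TMM factors. The glutamine carrier Slc1a5 was at 2.26, 1.30 and 0.966 CPM in FH and 23.9, 40.4, 57.9, 153 and 70.5 CPM in dediHeps (log2 fold change 5.48 ± 0.82). Slc3a2, the common chain of several amino acid exchangers, rose from 101 ± 19.7 to 505 ± 168 CPM, Slc7a11, the cystine importer, was at least 31.1-fold higher, and Asns, asparagine synthetase, rose from 1.13, 0 and 3.86 CPM to 15.8, 56.5, 38.8, 115 and 31.4 CPM (log2 fold change 4.79 ± 0.92, FDR 0.0018). Neither Asns nor Slc1a5 overlapped between groups. The liver glutaminase Gls2 fell (log2 fold change −5.75 ± 0.57). Asns is a known target of ATF4, the factor of the amino acid response, and its promoter is shown for the match to TGATGNAA in capitals (chr6:7693210-7693459, GRCm38.p6, minus strand, the 250 bases before the RefSeq start).
Asns: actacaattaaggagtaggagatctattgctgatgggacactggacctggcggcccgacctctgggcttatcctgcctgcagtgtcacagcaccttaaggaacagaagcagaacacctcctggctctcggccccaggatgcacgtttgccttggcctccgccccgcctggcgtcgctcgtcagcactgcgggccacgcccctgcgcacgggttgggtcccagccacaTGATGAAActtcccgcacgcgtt
On both strands, 3 of 11 tested glutamine and glutamate genes with a promoter held these letters (Asns, Slc7a11 and Got1, which was lower by less than the threshold), against 3.91% of all promoters. Among all genes tested 2.28% held them, among genes called higher 1.91% and among genes called lower 3.2%. A match is a description of the letters and no sign of binding. Atf4 itself was not called (log2 fold change 0.58 ± 0.40), nor were Chac1, Ddit3 and Trib3 (log2 fold changes 2.31 ± 1.28, 1.23 ± 0.80 and 1.77 ± 1.20). Got1 passed the call without FH library 3 (log2 fold change −2.01, FDR 0.000861). Chac1 passed the call without FH library 2 (log2 fold change 4.54, FDR 0.0709). Ddit3 passed the call without FH library 3 (log2 fold change 2.82, FDR 0.0645).

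All 8 tested urea cycle genes fell. Arg1, which releases urea, was at 2014, 1288 and 1496 CPM in FH and had no count in dediHeps (at least 7226-fold lower), and Otc fell from 2955, 4062 and 3327 CPM to 0.509, 6.52, 11.003, 5.41 and 15.5 CPM (log2 fold change −8.76 ± 0.71, FDR 4.78e-06). The smallest fall was that of Slc25a13, a mitochondrial aspartate carrier, from 234 ± 23.6 to 32.9 ± 18.2 CPM. In the zonation lists, 9 of 11 genes of the central vein side and 12 of 15 of the portal side fell and 0 rose in either (2 portal genes rose under library totals without TMM factors), which includes Cyp2f2 and Sds on the portal side (24350-fold lower, 95% counting interval 6740 to 201100 and at least 409-fold lower) and Slc1a2 and Rgn on the central side (1617-fold lower, 95% counting interval 446 to 13380 and log2 fold change −9.89 ± 0.62). Glutamine synthetase, Glul, the classic pericentral enzyme, was at 244, 289 and 172 CPM in FH and 71.8, 67.8, 134, 194 and 98.7 CPM in dediHeps. It was lower by less than the threshold (log2 fold change −1.05 ± 0.39, FDR 0.0548).

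Fatty acid oxidation was lower in both compartments. Of 24 mitochondrial genes 17 fell and 0 rose, and of 18 peroxisomal genes 15 fell and 0 rose (6 mitochondrial genes fell under library totals without TMM factors). Uox, the urate oxidase of peroxisomes, was at 1620, 2041 and 1913 CPM in FH and had no count in dediHeps (at least 8336-fold lower). The carnitine step Cpt1a, which admits fatty acids to mitochondria, was lower by less than the threshold (log2 fold change −1.14 ± 0.29, FDR 0.00899). Among genes of fat synthesis, 9 of 23 fell and 2 rose. Thrsp, Elovl2 and Mlxipl, which serve lipogenesis in liver, fell (log2 fold changes −10.78 ± 0.78, −7.37 ± 0.68 and −3.57 ± 0.52). Fasn was lower by less than the threshold (log2 fold change −1.35 ± 0.41), and Srebf1 was not called (log2 fold change −1.09 ± 0.63). Elovl7 was at least 53.7-fold higher. Of 25 cholesterol genes 3 fell and 1 rose, and 0 fell under library totals without TMM factors, where the sign of their median turned as well (−0.80 to 0.10).

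The respiratory chain was lower by a modest amount in nearly all members. Of 73 nuclear genes of complexes I to V, 72 had a negative log2 fold change and 61 were lower at an FDR under 0.1, but 4 passed the fold threshold, with a median of −1.34. That count was 11 without FH library 1, 8 without dediHep library 5, 2 without FH library 2 or dediHep library 2, and 0 under library totals without TMM factors, where the median was −0.43. Ndufa4 fell from 797, 496 and 295 CPM to 156, 99.5, 111, 109.5 and 157 CPM (log2 fold change −2.06 ± 0.36, FDR 0.000873). Ndufa4 was not called without FH library 1 or dediHep library 2 (log2 fold change −1.65 to −1.94, FDR 0.0039 to 0.00403). In contrast, Atp5b was at 439.8 ± 83.4 and 283 ± 33.5 CPM (log2 fold change −0.64 ± 0.27, FDR 0.0895). All 13 protein-coding genes of mitochondrial DNA were lower at an FDR under 0.1, 4 of them past the fold threshold, with mt-Co1 at 3908, 4278 and 3569 CPM in FH and 1361, 1552, 921, 1132 and 1243 CPM in dediHeps (log2 fold change −1.66 ± 0.27, FDR 0.000665). Several mitochondrial genes were near the UMI ceiling in both groups, and corrected for saturation the log2 fold change of mt-Co1 was −1.79.

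Genes of protein synthesis differed less than the liver programme. Of 87 tested cytosolic ribosomal protein genes, 0 were called in either direction (8 were higher and 3 lower at an FDR under 0.1, in edgeR), and their median log2 fold change was 0.21. Of the 87, 25 were kept, beside 6.25% of all genes and 9.76% of the 7224 genes that reached 10 CPM in both groups. When each library was left out in turn 9 to 27 were kept, with 9 without FH library 2. Under library totals without TMM factors the median was 1.10, beside 0.97 for all genes, 4 were called higher, 67 were higher at an FDR under 0.1 and 3 were kept. Rplp0 was higher by the largest amount, at 52.0, 81.6 and 77.3 CPM in FH and 219, 225, 258, 239 and 179.8 CPM in dediHeps (log2 fold change 1.67 ± 0.31, FDR 0.00157), and Rps25 lower by the largest amount (log2 fold change −1.21 ± 0.37, FDR 0.024). Of 21 translation factors 7 were kept (2 without FH library 3), among them Eif4e, the cap-binding protein, at 124, 106 and 164 CPM and 97.8, 196, 127, 150.4 and 109.7 CPM (95% interval −0.68 to 0.78), Eif5a and Eef1b2. Eef2, the translocation factor, was lower by less than the threshold (log2 fold change −1.20 ± 0.40, FDR 0.0342). Aminoacyl tRNA synthetases had a median of 0.67 with 7 of 20 higher and 1 lower at an FDR under 0.1, and Wars passed the fold threshold (log2 fold change 2.81 ± 0.54, FDR 0.00176). Ribosome biogenesis genes had a median of 0.61 and 0 of 28 called, with Nop56 highest (log2 fold change 1.56 ± 0.50, FDR 0.03). Nop56 passed the call without FH library 3 (log2 fold change 2.26, FDR 0.015). Mitochondrial ribosomal proteins had a median of −0.63, which turned to 0.28 under library totals without TMM factors. Under that scaling 5 ribosome biogenesis genes and 6 aminoacyl tRNA synthetases were called higher.

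**Figure D4:**
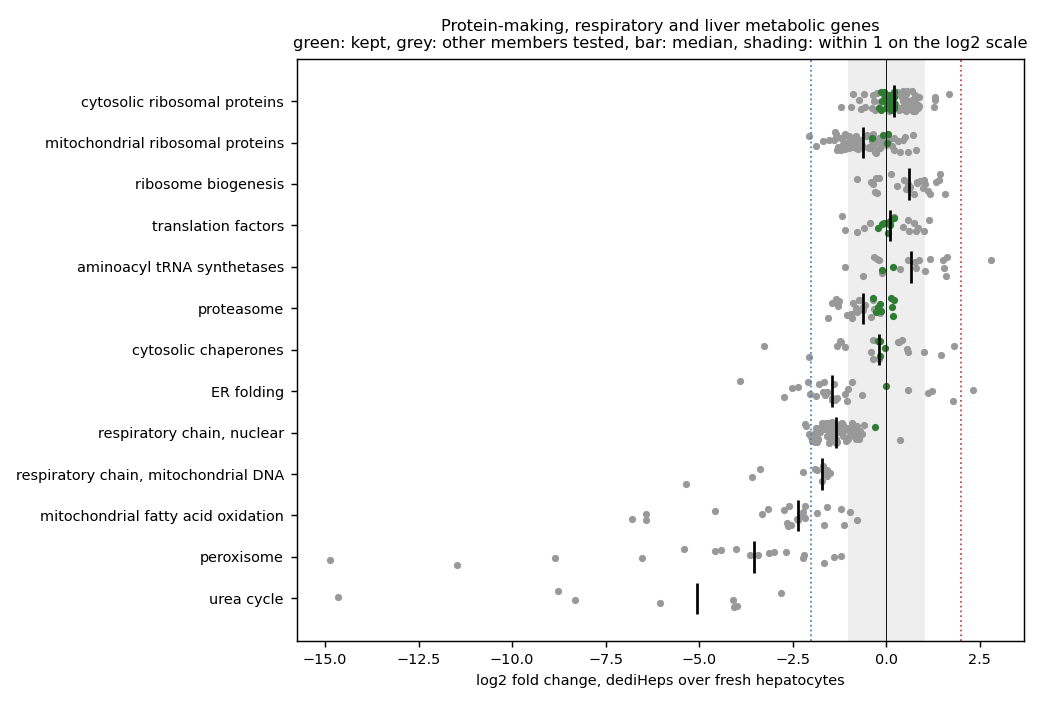
Log2 fold changes, dediHeps over FH, of every tested member of 13 gene groups (points, with kept genes in green and medians as black bars). The shaded band spans −1 to 1 and dotted lines mark −2 and 2. Cytosolic ribosomal proteins and translation factors cluster near 0, ER folding and the respiratory chain lie to the left within the dotted lines for most members, and the peroxisome and urea cycle reach far lower.

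Protein folding and breakdown take place in the cytosol and, for secreted proteins, the endoplasmic reticulum (ER), and the lists were not compared by a test. Of 31 proteasome genes 9 were kept (2 without FH library 1 or dediHep library 2) and 0 were called, with a median of −0.64 (0.24 under library totals without TMM factors) and 9 lower and 0 higher at an FDR under 0.1. Of 23 cytosolic chaperones 2 were called lower and 0 higher, 6 were lower and 3 higher at an FDR under 0.1 and 5 were kept, and under library totals without TMM factors 1 was called lower and 2 higher. The chaperones Hspa8 and Hsp90aa1 were kept at 311 ± 37.7 and 423 ± 137 CPM in dediHeps. ER folding genes had a median of −1.44, and 19 of 29 were lower and 0 higher at an FDR under 0.1. Of these, 6 fell, among them Hsp90b1 from 978, 283 and 188 CPM to 165, 56.1, 60.3, 30.4 and 53.8 CPM (log2 fold change −2.73 ± 0.61, FDR 0.00469) and Pdia5 (log2 fold change −3.91 ± 0.35, FDR 9.26e-06). Hsp90b1 was not called without FH library 1 (log2 fold change −1.70, FDR 0.0361). The ER chaperone Hspa5, known as BiP, was lower by less than the threshold (log2 fold change −1.44 ± 0.34, FDR 0.006). Without FH library 1 the ER genes called lower were 3, and under library totals without TMM factors 1 was lower and 3 higher.

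The 6.25% of genes kept made up 9.76% of the 7224 genes that reached 10 CPM in both groups. Beside Ctnnb1, Actb, Tpm3, Arpc2, Lsr, Pgam1 and the ribosomal and proteasomal genes above, the most abundant kept genes included Eif4g2, a translation regulator (1090 ± 280.3 and 986 ± 159 CPM), Tpt1, the tumour protein translationally controlled (652 ± 67.5 and 819 ± 194 CPM), and Ywhab, a 14-3-3 protein (645 ± 222 and 709.8 ± 151 CPM). Of the 21 kept genes named here, Eif4g2 and Txnrd1 met the rule whichever library was left out. The count of kept genes, 705, depended on single libraries. It was 436, 284 and 239 without FH library 1, 2 and 3, and 761, 376, 443, 434 and 404 without dediHep library 1 to 5 in turn. Under library totals without TMM factors 390 genes met the rule, of which 0 were among the 705.

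Stress responses were selective. Of 21 genes of the p53 response and cell cycle arrest, 12 rose and 0 fell (median log2 fold change 2.33). Cdkn1a, the p21 inhibitor of cyclin-dependent kinases, was at 6.79, 6.48 and 4.83 CPM in FH and 393, 295, 402, 467 and 333 CPM in dediHeps (log2 fold change 5.96 ± 0.41, FDR 1.66e-06). No value of one group came near the other, and the same libraries held Ccnd1 at the levels given above. Phlda3 had no count in FH and 48.9, 17.4, 26.7, 52.1 and 48.1 CPM in dediHeps (at least 33.9-fold higher), and the death receptor Tnfrsf10b rose to 96.0 ± 51.0 CPM. Trp53 itself rose from 14.7 ± 14.0 to 95.7 ± 68.0 CPM (log2 fold change 2.69 ± 0.73, FDR 0.0132), and Mdm2, the ligase that degrades p53, was higher by less than the threshold (log2 fold change 1.80 ± 0.35, FDR 0.00187). Both sides of the apoptosis switch rose, the effector Bax (log2 fold change 2.44 ± 0.38) and the survival genes Bcl2l1 and Bcl2 (log2 fold changes 2.61 ± 0.56 and 3.80 ± 0.53), whereas the caspase Casp6 was kept. The locus Cdkn2a was below the filter, and Cdkn2b rose with a wide range, at 139.6, 87.3, 1.57, 5.07 and 27.7 CPM.

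Redox genes were mixed. Gpx1 and Sod1, which remove peroxide and superoxide, fell from 2155 ± 594 and 1384 ± 407 CPM to 181 ± 39.0 and 290.4 ± 92.7 CPM, while Txnrd1, a target of NRF2, was kept (log2 fold change −0.08 ± 0.29). Hmox1 was higher by less than the threshold (log2 fold change 1.59 ± 0.70, FDR 0.0971). Hmox1 passed the call without FH library 2 (log2 fold change 2.25, FDR 0.0758). The metallothionein Mt2 rose from 12.4, 28.5 and 50.2 CPM to 265, 103, 228, 548 and 281 CPM (log2 fold change 3.22 ± 0.62, FDR 0.00187), and Mt1 was not called (log2 fold change 1.09 ± 0.53, FDR 0.127). The hepatocyte circuit of iron sensing was lower. Hamp, encoding the iron hormone hepcidin, fell from 2440, 4262 and 3218 CPM to 0, 6.95, 3.14, 216 and 1.63 CPM (log2 fold change −6.17 ± 1.57, FDR 0.00959), and its upstream genes Hfe2, Hfe, Tfr2 and Tmprss6 fell too (1970-fold lower, 95% counting interval 352 to 78020, log2 fold change −3.32 ± 0.68, log2 fold change −3.62 ± 0.47 and log2 fold change −5.12 ± 0.58). The transferrin receptor Tfrc, the ferroportin Slc40a1 and ferritin Ftl1 were not called. The Steap genes went in different directions. Steap4 was at 265 ± 329.9 CPM in FH, where its SD exceeded its mean, and at 3.85 ± 5.38 CPM in dediHeps. Steap1 and Steap2 were at 0.699 ± 0.611 and 19.1 ± 2.55 CPM in FH and 125 ± 46.9 and 328 ± 119 CPM in dediHeps.

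Hypoxia targets were called higher in 2 and lower in 0 of 17 cases, and higher in 4 under library totals without TMM factors. Ndrg1 rose from 27.1, 40.2 and 25.1 CPM to 574, 1181, 905, 792 and 765 CPM (log2 fold change 4.78 ± 0.42, FDR 7.62e-06), but Vegfa, Egln1 and Hif1a were not called (log2 fold changes −0.23 ± 0.54, −0.67 ± 0.38 and 0.44 ± 0.44). Circadian output factors were lower. Of 17 clock genes 7 fell and 0 rose (3 fell under library totals without TMM factors). Dbp and Hlf, factors with a PAR domain, fell from 66.0 ± 20.3 and 122 ± 28.8 CPM to 2.97 ± 2.78 and 0 CPM, and Nr1d1, encoding REV-ERB alpha, from 73.5, 329 and 603 CPM to 7.13, 30.4, 12.3, 36.2 and 17.1 CPM (log2 fold change −4.02 ± 0.65, FDR 0.000597). Arntl, the core activator BMAL1, and Per1 were not called (log2 fold changes 1.42 ± 0.89 and −0.18 ± 0.47). Arntl passed the call without FH library 1 (log2 fold change 2.97, FDR 0.0713). The labels give no time of day for any library, so that the phase at collection was not tested.

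The transcription factors of the hepatocyte split into those that fell and those that did not. Of the 20 HNF, FOXA, C/EBP and related factors tested, 6 fell and 1 rose, and 5 fell and 3 rose under library totals without TMM factors. Cebpa, which drives metabolic genes of the mature hepatocyte, was at 354, 492 and 411 CPM in FH and 28.0, 17.8, 57.6, 50.7 and 21.2 CPM in dediHeps (log2 fold change −3.57 ± 0.42, FDR 6.68e-05), whereas its relative Cebpb was at 450.1, 180.1 and 263 CPM and 667, 214, 87.5, 366 and 148 CPM (log2 fold change −0.01 ± 0.59, FDR 0.994). The groups were separate for the first and overlapped for the second. Onecut1, known as HNF6, fell from 146 ± 86.5 to 2.21 ± 1.03 CPM, Nr5a2 from 519 ± 256 to 37.5 ± 38.4 CPM and Prox1 from 736 ± 353 to 165 ± 75.0 CPM. Prox1 was not called without FH library 3 or dediHep library 1 (log2 fold change −1.70 to −1.98, FDR 0.0027 to 0.0216). Onecut2 was not called (log2 fold change −0.30 ± 0.35). Foxa2, a pioneer factor of endoderm, was higher by less than the threshold, at 129, 179 and 144 CPM in FH and 410.1, 612, 206, 323 and 371 CPM in dediHeps (log2 fold change 1.35 ± 0.38, FDR 0.0163). Gata6, which acts early in liver development, rose from 21.5, 16.8 and 22.2 CPM to 331, 184, 121, 86.5 and 106 CPM (log2 fold change 3.03 ± 0.53, FDR 0.000921). The paralogue Foxa1 followed the second principal component rather than the groups, at 62.2, 16.8 and 10.6 CPM in FH and 63.2, 3.48, 3.93, 0.338 and 0.816 CPM in dediHeps, and was not called. Foxa1 passed the call without dediHep library 1 (log2 fold change −3.74, FDR 0.00288). Metabolic nuclear receptors fell in 9 of 14 cases and rose in 0. Nr1i3, the xenobiotic receptor CAR, fell from 123 ± 53.9 to 0.157 ± 0.351 CPM, Ppara from 93.4 ± 56.7 to 3.01 ± 1.73 CPM and Rxra from 178 ± 55.7 to 33.0 ± 12.4 CPM, while the bile acid receptor Nr1h4, FXR, was not called (log2 fold change −0.87 ± 0.47, FDR 0.171).

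Liver genes that remained abundant were drawn from 7 lists of hepatocyte factors, plasma proteins, surface proteins, liver glycolysis, urea cycle, fatty acid oxidation and zonation, 201 genes in all. Of the 189 tested, 146 fell, 2 rose and 0 met the rule for kept (115, 8 and 3 under library totals without TMM factors), with a median log2 fold change of −3.68. None of them was thus shown to stay within 1 on the log2 scale, but 123 still had a mean of at least 10 CPM in dediHeps and 156 at least 1 CPM. Highest was Cat, the catalase of peroxisomes, at 3708, 4848 and 3813 CPM in FH and 1286, 1592, 926, 1234 and 1495 CPM in dediHeps (log2 fold change −1.66 ± 0.28, FDR 0.0008). The groups did not overlap. It was followed by Rbp4, the retinol carrier (883 ± 314 CPM), Apoa1, the apolipoprotein of HDL (846 ± 374 CPM), Cdh1, encoding E-cadherin (831 ± 259 CPM), Trf, encoding transferrin (776 ± 353 CPM), Aldh1a1, which makes retinoic acid (740.5 ± 381 CPM), and Selenop, the selenium carrier (729.9 ± 307 CPM). Cp, encoding ceruloplasmin, was at 975, 1405 and 1182 CPM in FH and 826, 484, 165, 688 and 485 CPM in dediHeps (log2 fold change −1.17 ± 0.44, FDR 0.0549). Apoc2 was the plasma protein gene nearest to its FH level, at 232, 425 and 542 CPM and 40.2, 720.5, 381, 939 and 544 CPM, with overlapping groups and a 95% interval of −1.16 to 1.95. Rbp4 was not called without FH library 2 or dediHep library 1 (log2 fold change −1.90 to −1.97, FDR 0.000347 to 0.00445). Apoa1 passed the call without FH library 1, dediHep library 4 or dediHep library 5 (log2 fold change −2.001 to −2.21, FDR 0.00303 to 0.00762). Trf passed the call without FH library 1 or dediHep library 4 (log2 fold change −2.02 to −2.04, FDR 0.00426 to 0.00671). Selenop passed the call without dediHep library 2 (log2 fold change −2.01, FDR 0.002). Cdh1 was the one of these that was higher in dediHeps, by less than the threshold (log2 fold change 1.57 ± 0.39, FDR 0.00824). Counts of Cat, Rbp4, Apoa1 and Trf approached the UMI ceiling in dediHeps as in FH, so that this order is compressed. Corrected for saturation the log2 fold changes of Cat, Rbp4 and Apoa1 were −1.89, −2.44 and −2.21. That of Aldh1a1 was −1.66, beside a log2 fold change −1.67 ± 0.44 as counted.

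Plasma proteins thus differed widely among themselves. All 16 apolipoproteins and lipoprotein genes but Apoa1 and Apoc2 fell. Apoa1 was lower by slightly less than the threshold (log2 fold change −1.99 ± 0.42, FDR 0.00324). Other settings of the processing placed it on either side of that threshold, from −1.09 under library totals without TMM factors to −2.47 with a replicate block. Apob and Apoe fell by 2.99 on the log2 scale, to 145 ± 89.1 and 519 ± 394 CPM, whereas Apoa2 fell from 2107, 3293 and 3480 CPM to 0, 6.52, 0.262, 12.2 and 8.56 CPM (log2 fold change −9.05 ± 1.00, FDR 3.95e-05). Of the carriers, Ttr fell to 705 ± 312 CPM, and Serpina6, the carrier of glucocorticoids, had no count in dediHeps (at least 2675-fold lower). The uptake carriers of the sinusoidal membrane fell in 17 of 19 cases. Slco1b2, Slco1a1 and Slco2b1 had no count in any dediHep library and 1462 ± 398, 1378 ± 217 and 662 ± 250.3 CPM in FH (at least 6410-fold, 6176-fold and 2955-fold lower), and Slc10a1, the bile acid importer NTCP, fell from 1157 ± 583 to 0.168 ± 0.231 CPM (7801-fold lower, 95% counting interval 2158 to 64440). On the canalicular side Abcb11, the bile salt pump, fell from 787, 861 and 1618 CPM to 0, 0, 0, 1.35 and 2.04 CPM (log2 fold change −10.53 ± 0.84), Abcc2 remained at 67.3 ± 57.2 CPM after a smaller fall (log2 fold change −2.71 ± 0.64), and Abcc4, a basolateral export pump, rose from 3.39, 1.30 and 0 CPM to 263, 226, 104, 148 and 169 CPM (log2 fold change 6.86 ± 0.72, FDR 2.82e-05). Neither overlapped between groups. Of 15 channels and epithelial transporters tested 8 fell and 1 rose, namely the chloride channel Ano1 (67.5-fold higher, 95% counting interval 18.6 to 559). Among those that fell were Aqp8 and Aqp9 to 0.425 ± 0.732 and 4.68 ± 4.31 CPM and Car3 to 0.183 ± 0.254 CPM from 3226 ± 255 CPM.

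Genes of fetal liver and of tumours rose. Of 24 listed oncofetal and imprinted genes, 13 passed the filter, 12 of which rose and 0 fell. H19, an imprinted RNA that the liver shuts off after birth, had no count in FH and 46.4, 679.6, 869.8, 1184 and 510.2 CPM in dediHeps (at least 647-fold higher). Afp, encoding alpha-fetoprotein, had no count in FH and 3.57, 60.4, 27.0, 11.5 and 15.1 CPM in dediHeps (at least 21.3-fold higher). The chromatin protein Hmga2 was at 0, 2.59 and 1.93 CPM and 287, 759.6, 257, 501 and 400.1 CPM (log2 fold change 8.15 ± 0.75), and the RNA-binding proteins Igf2bp1 and Igf2bp3 were at least 33.6-fold and 38.5-fold higher. Cd24a, Sox4 and Peg3 reached 731 ± 146, 534 ± 243 and 535 ± 255 CPM. Lin28b, Dlk1 and Gpc3 were below the filter. A member that passed the filter only through dediHeps had to be higher there, so that the count is given as a description.

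Of 22 listed intestinal genes, 9 passed the filter, 6 rose and 1 fell. All 6 had no count in FH, so that they passed the filter only through dediHeps and had to be higher, and the count is a description. Beside Krt20, Vil1 and Cdh17, Cdx2, the master factor of intestine, had no count in FH and 2.04, 60.4, 103, 27.4 and 7.75 CPM in dediHeps (at least 42.4-fold higher). Its level was lowest in library 1 and highest in library 3. Muc13 was at 0, 26.9, 109, 5.07 and 2.85 CPM and Alpi, the intestinal alkaline phosphatase, at 0, 13.5, 114, 6.08 and 7.34 CPM in dediHeps. Both had no count in FH or in dediHep library 1, and neither was called without FH library 1, 2 or 3 (FDR 0.113 to 0.125 for Muc13 and 0.103 to 0.115 for Alpi). The fatty acid carrier Fabp2 fell from 158 ± 40.4 to 1.03 ± 0.873 CPM, and genes of differentiated gut cells such as Sis, Muc2, Chga and Lyz1 were below the filter. None of the 24 genes of stomach, pancreas and lung passed the filter. The mesothelial marker Msln had no count in FH and 956, 631, 513, 346 and 962 CPM in dediHeps (at least 576-fold higher), while the other 4 markers of that list were below the filter, with Wt1 at 35.1, 2.61, 0, 28.1 and 0 CPM and Upk3b at 11.7, 0.435, 0.524, 0.338 and 8.16 CPM in dediHeps. Msln is also known from several epithelial tumours, and the part of mesothelial cells was not tested.

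**Figure D5:**
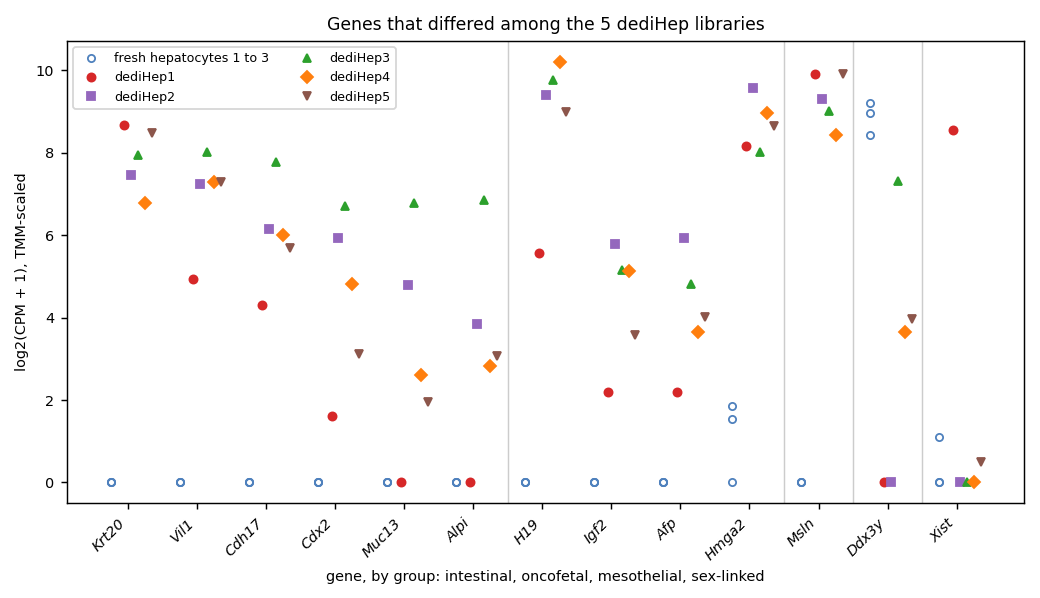
Levels, as log2(CPM + 1), TMM-scaled, of intestinal, oncofetal, mesothelial and sex-linked genes in 3 FH libraries (open blue circles) and in each of 5 dediHep libraries (filled symbols). Muc13 and Alpi are at 0 in dediHep library 1 and highest in library 3, Krt20 and Msln are high in all 5, and Xist stands out in dediHep library 1, where Ddx3y is at 0.

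Several of these genes varied widely among the dediHep libraries. By the ratio of the highest to the lowest library, the widest of the genes called higher with a mean over 20 CPM included Alpi, Muc13, Dlx2 (83.0, 0, 21.5, 7.77 and 14.7 CPM), Bex1 (97.8, 27.4, 208, 0.338 and 154 CPM), Eps8l3 (0, 16.1, 67.1, 11.5 and 13.5 CPM) and Upk1b, a urothelial tetraspanin (202, 5.21, 2.10, 0.338 and 6.12 CPM). Upk1b was not called without FH library 1, 2 or 3 (FDR 0.149 to 0.162). Library 1 was the highest of the 5 for Upk1b and the lowest for the intestinal genes Vil1, Cdh17, Cdx2, Muc13 and Alpi, and Krt20 was highest in it. Over the whole table, 469 genes lay more than 2-fold above every other library of the same group in both FH library 1 and dediHep library 1, and 237 lay more than 2-fold below, of which 81 and 62 were called between the groups. These libraries are replicates of different groups, and their deviations from the group means correlated at 0.557 across genes, a description and not a test.

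Other families moved with the groups above. Of 18 tetraspanins tested, 8 rose and 3 fell, with Tspan8 at 0, 0 and 0.966 CPM in FH and 373, 172, 255, 99.4 and 239 CPM in dediHeps (595-fold higher, 95% counting interval 107 to 23510) and Cd63 at 10.2, 3.89 and 0.966 CPM and 399, 439, 124, 367 and 279 CPM (log2 fold change 6.01 ± 0.72, FDR 7.33e-05). Of 6 galectins, 3 rose and 1 fell. Lgals2, a lectin of the gut, had no count in FH and 24.96, 173, 567, 381 and 184 CPM in dediHeps, and Lgals3 rose from 3.99 ± 3.28 to 199 ± 82.7 CPM. Guidance genes rose in 7 and fell in 2 of 16 cases for semaphorins and plexins and rose in 5 and fell in 1 of 11 for ephrins and their receptors. Those that rose include Sema3c (32.1 ± 22.4 CPM), Efnb2 (161 ± 32.8 CPM) and Epha4 (93.3 ± 61.1 CPM). Among 186 solute carriers 26 rose and 50 fell, and under library totals without TMM factors 42 rose and 40 fell. The rise of Slc7a1, the cationic amino acid carrier (log2 fold change 6.35 ± 0.66), stood beside the fall of its liver form Slc7a2 (log2 fold change −6.05 ± 0.52). Slc25a4, the ADP and ATP exchanger of muscle and other tissues, rose (log2 fold change 5.96 ± 0.48, FDR 4.43e-06). Of 14 aldehyde dehydrogenases 9 fell and 2 rose.

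Outside all lists, the called genes with the smallest p-values were named by rule. Among those that were higher were Iqgap1, a scaffold of actin and Rac, at 3.39, 3.89 and 2.897 CPM in FH and 166, 219, 155, 185 and 155 CPM in dediHeps (log2 fold change 5.68 ± 0.42, FDR 2.36e-06), Axl, a receptor tyrosine kinase for Gas6, at 5.66, 7.78 and 11.6 CPM and 446, 441, 342, 569 and 502 CPM (log2 fold change 5.76 ± 0.43, FDR 2.71e-06), and Fads3, a desaturase, at 0.809 ± 0.705 and 229.5 ± 45.8 CPM. Each varied little within groups compared with the distance between them. Arl4c, Glis2 and Bex3 rose to 235 ± 67.6, 191 ± 54.6 and 695 ± 174 CPM. Lower were Kmo and Hgd, enzymes of tryptophan and tyrosine breakdown, from 380.1 ± 69.9 and 430.3 ± 144 CPM to 0.0524 ± 0.117 and 0.221 ± 0.212 CPM, Wfdc21, from 1159, 1198 and 926 CPM to 0, 0, 0, 0 and 0.408 CPM (14580-fold lower, 95% counting interval 2615 to 576000, FDR 1.31e-07), and Pigr, which carries immunoglobulin A across epithelia, from 1408 ± 382 to 0.359 ± 0.429 CPM.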

How the data were processed

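The deposited counts are whole numbers of UMIs from CEL-seq2 for 46078 gene identifiers in 49 libraries. Per the submitters' processing notes, reads were demultiplexed with bcl2fastq 2.20, aligned with Bowtie2 2.3.1 to GRCm38 and counted with HTSeq 0.6.0, and whether counting used strand is not given in the sources used here. Genes with overlapping or near-identical copies are therefore uncertain. Identifiers without a gene symbol held at most 0.146% of counts. No column was left unmatched, and 8 columns were used.

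Counts were filtered (filterByExpr, minimum count 10, minimum total 15), scaled by TMM and tested with the quasi-likelihood F-test of edgeR 4.0.16 (limma 3.58.1, R 4.3.3) over the 8 libraries alone, taking from the study's methods the Benjamini-Hochberg FDR limit of 0.1 and the log2 fold change limit of 2 either way. SEs came from the F statistic and intervals from the total degrees of freedom of the fit. Bounds rest on 3 counts over a group and counting intervals cover counting error only. Genes were named as anchors of each list, as the called members with the smallest p in each direction, as called genes outside lists and as genes of the widest spread. Members named beside these for contrast, and the 6 pairs of forms, were chosen after their values were seen. Some genes that the rule names are not reported here. The comparison and all gene lists were chosen with earlier results of these data known. Promoters came from RefSeq (GRCm38.p6) and were matched by symbol.

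No pair of replicates agreed within sampling noise (chi-square per degree of freedom 8.96 to 48.2). On simulated counts for 10919 genes of this comparison, 83.3% of 96 genes with a true log2 fold change of 3 were called, 2.02% of 99 with a change of 1 and 0.0373% of 10724 without a change. Of these 10724, 8.03% met the rule for kept. The simulation changed few genes, up or down at random, and gave the groups no difference in composition, unlike the data. Its rates therefore do not cover errors of scaling. Alternatives were RLE size factors, no filter, all 49 libraries in a single fit, a correction for UMI saturation, a replicate block, thinned counts, each library left out, DESeq2 1.42.0, other fold thresholds and a 99% interval. Library totals without TMM factors and the omission of FH library 1 with dediHep library 1 were added after seeing the data.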

Additional observations from a re-analysis of the deposited data

Results flagged for a closer look

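Among the 5 dediHep libraries, 1 value lay apart from the other 4 by Dixon's ratio (above 0.71) for 57 of 355 values examined. Chance gives about 1 in 20 for normally distributed values not chosen by their spread. Most of the values are CPM on a linear scale, which need not be so distributed. The rate was not checked for them, so that the count is a description. That rate does not apply to genes counted in a single dediHep library (Dcn, Hfe2, Kmo, Nr1i3, Pck1, Slc1a2 and Wfdc21) or the erythroid markers, which had to stand apart, or to Alpi, Muc13, Dlx2, Eps8l3 and Upk1b, which were named for their wide range. Of the 57, 23 were in library 1, 14 in library 4, 12 in library 3, 7 in library 5 and 1 in library 2. Library 1 is also the one with Xist counts, and its part in these values was not tested. The comparisons with FH are those of the report, and the values below are CPM of the library that stood apart.

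In library 1, growth and contact genes were high, with Egfr at 93.2, Igf1r at 82.5, Jag1 at 117, Notch2 at 54.0, Jup at 127, Col4a1 at 238, Gpc4 at 14.8, Prlr at 3.57 and Dcn at 1.02. Secreted immune genes and antigen presentation were high in it as well, with Ccl20 at 719, Lif at 165, B2m at 561 and H2-D1 at 340.0. Other high values there were those of Foxa1 (63.2), Dlx2 (83.0), Trp53 (213), Upk1b (202), Hsp90b1 (165), Srebf1 (88.1), Steap4 (13.2), Ano1 (235) and Thbs1 (159). Anxa2 was low, at 426.

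In library 3, epithelial and intestinal genes were high, with Alpi at 114, Muc13 at 109, Cdh17 at 219, Krt19 at 434, Eps8l3 at 67.1, Anxa8 at 143 and Dsc2 at 7.6. Wnt4 was at 386 and Tpi1 at 265, Dusp5 was low at 293, and Kmo and Nr1i3, at 0 in the other 4 libraries, were at 0.262 and 0.786.

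In library 4, amino acid response genes were high, with Chac1 at 409, Trib3 at 103, the cystine importer Slc7a11 at 118 and Slc7a1 at 417. Hamp was at 216 and the acute-phase genes Saa3 and Saa1 at 348 and 3.38. Interferon-related genes were the highest of the 5 there at low levels, with Ifitm3 at 12.8, Nlrc5 at 2.03 and Rsad2 at 1.01. Aqp8 was at 1.69, Pck1 at 0.338 and Slc1a2 at 0.676, and Anxa7 was low at 116.

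In library 5, Dhh was at 55.5, Gnmt at 150.0, Fbp1 at 1.63, Pygl at 3.26, Hfe2 at 0.408 and Wfdc21 at 0.408, and the stellate cell and fibroblast markers summed to 126. In library 2, the erythroid markers summed to 0.869.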

How the results depend on the processing

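The 2901 calls became 2750 to 3265 when each library was left out in turn and 4481 without the filter on low counts, 4768 with an absolute log2 fold change over 1, 2904 with DESeq2 and 3963 with all 49 libraries in a single fit. Between 84.1% and 100% of the 2901 were called under each alternative, and none of them was called in the opposite direction. The kept genes, 705, became 239 to 761 without a library, 1613 with all 49 libraries, 390 under library totals without TMM factors, 0 of them among the 705, and 42 with a 99% interval. The replicate numbers were not treated as pairs, since same-numbered deviations from the group means correlated at 0.557, 0.155 and −0.054. Whether same-numbered libraries share a source was not tested. With the replicate block 3067 genes were called and 767 kept, and Bcl2l1 and Psph were not called.

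Of 250 called genes named in the report, 16 were not called without some library, 18 under library totals without TMM factors and 0 under RLE size factors, the saturation correction or, among those with an FDR, DESeq2, which gave none for 70 genes. The 18 were all lower in dediHeps, namely Abcc2, B2m, Bmp2, Erbb3, Errfi1, Hsp90b1, Insr, Mylk, Ndufa4, Pklr, Prox1, Rbp4, Rxra, Scd1, Slc25a13, Sod1, Tcf7l1 and Ttr. The log2 fold change of Atp5b turned to 0.26 there. The lower genes of the hepatocyte lists were 115 of 189 in place of 146 under that scaling. Genes near the UMI ceiling have compressed levels, and low genes rest on few counts.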
